A study of Mus musculus with 12 samples.

Results

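Interferon-stimulated genes are described here, 37 genes chosen by name and found once each among the 55487 genes of the gene table. The list was set by gene name and not by a threshold on a value, and it covers transcription factors, nucleic acid sensors and antiviral effectors. It was chosen with earlier results of these data known, so shares of members and of all genes are set side by side as description. The study asked how *Pax6* and JNK3 shape the response of the mouse retina to NMDA, an agonist that kills retinal ganglion cells (RGC) by overactivating glutamate receptors. It holds 12 libraries of polyA RNA from adult retina, 2 in each of 6 groups. WT (B6J) retinas are of C57BL/6J mice, sh*Pax6* retinas are of such mice infected with an AAV2.7m8 vector (2 µL) that carries shRNA against *Pax6* under the U6 promoter and a GFP reporter, and JNK3 KO retinas are of Jnk3-/- mice, which lack the kinase encoded by *Mapk10*. Each kind received an intravitreal injection of 1 µL of PBS or of 1 µL of 40 mM NMDA (40 nmol). No library comes from retinas with the shScramble vector, so infection with AAV and knockdown of *Pax6* cannot be told apart. RNA of several retinas was pooled for a library, and the labels do not say that the 2 libraries of a group come from separate animals, so that p-values measure only the spread between these libraries.

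Interferons are secreted when a cell senses foreign or misplaced nucleic acid, and they act on neighbouring cells through receptors coupled to JAK kinases. Type I interferon drives a complex that holds STAT2 and IRF9 to a response element in the promoters of target genes, and type II interferon acts through another kind of element. The products of these genes block the translation, assembly or release of viruses, sense more nucleic acid or, as with USP18, switch the receptor off, and in the retina microglia, Müller glia and vascular cells are known to express many of them.

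Values are FPKM, fragments scaled to transcript length and to the total of mapped fragments, which allow levels of different genes to be compared. Depth is unknown, since FPKM hold no counts. Differences were fitted on log2(FPKM + 0.1) with limma over the 16471 genes whose mean exceeded 1 FPKM in at least 1 group, and a gene was called at an absolute log2 difference above 1 with a Benjamini-Hochberg adjusted p below 0.05. Folds are on the same scale, which understates the change of genes with low values. Where groups are said not to overlap, this describes 2 libraries against 2, and the share of all genes so separated was not counted. All 37 members passed the filter, 33 of them with a mean above 1 FPKM in all 6 groups, and *Oas2*, *Mx1*, *Ifi44* and *Trim30a* in fewer. The targeted genes were lower in the PBS libraries of their groups: *Pax6* was listed at 94.6 and 92.8 FPKM in sh*Pax6* against 173 and 177 in WT retinas, and *Mapk10* at 9.47 and 8.75 in JNK3 KO against 42.8 and 50.7. After NMDA they were not, with *Pax6* at 67.5 and 58.7 in sh*Pax6* and 55.4 and 53.8 in WT retinas, and *Mapk10* at 6.65 and 13.8 in JNK3 KO and 8.98 and 6 in WT retinas. The WT NMDA libraries stood apart in 2 ways that touch every result resting on them. Their FPKM summed to 805627 and 820180 over all genes against 541210 to 576922 in the other 10 libraries. Their differences from PBS fell with gene length, and a weaker fall was found for JNK3 KO PBS against WT PBS.

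The promoters are shown first because interferon acts on its target genes through elements in them. RefSeq start sites of GRCm38.p6 gave 32 windows, from 250 bases before to 50 bases after a start, for 28 of the 37 genes. The interferon-stimulated response element was searched as GAAANNGAAA on both strands. It was found in 19 of the 32 member windows (59.4%) against 3.44% of all 32851 windows. The element of type II interferon, searched as TTCNNNGAA, whose letters read the same on both strands, was found in 8 member windows (25.0%) against 8.3% of all. The members were listed as interferon-stimulated genes, so these shares describe the list and are no result about the libraries. The 6 sequences below are the 250 bases before the start of the called members with an interferon-stimulated response element and the largest rises after NMDA in sh*Pax6* retinas, each written 5′ to 3′ along the gene, with the matches in capitals and overlapping matches joined into 1 run. They lie at chr12:26456453-26456702 on the minus strand for *Rsad2*, chr11:48871421-48871670 on the minus strand for *Irgm1*, chr8:71537473-71537722 on the minus strand for *Bst2*, chr11:58199306-58199555 on the plus strand for *Igtp*, chr3:142620413-142620662 on the plus strand for *Gbp2* and chr5:120907526-120907775 on the minus strand for *Oas1a*.
Rsad2: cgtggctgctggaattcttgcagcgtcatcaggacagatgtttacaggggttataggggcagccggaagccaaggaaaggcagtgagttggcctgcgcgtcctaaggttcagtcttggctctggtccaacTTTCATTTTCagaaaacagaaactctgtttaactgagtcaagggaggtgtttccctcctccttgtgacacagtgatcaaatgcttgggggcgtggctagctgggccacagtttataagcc
Irgm1: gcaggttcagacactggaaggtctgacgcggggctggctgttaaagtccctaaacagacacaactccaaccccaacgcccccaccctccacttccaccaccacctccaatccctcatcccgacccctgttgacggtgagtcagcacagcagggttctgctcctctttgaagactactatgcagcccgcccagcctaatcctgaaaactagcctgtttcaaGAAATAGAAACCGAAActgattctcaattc
Bst2: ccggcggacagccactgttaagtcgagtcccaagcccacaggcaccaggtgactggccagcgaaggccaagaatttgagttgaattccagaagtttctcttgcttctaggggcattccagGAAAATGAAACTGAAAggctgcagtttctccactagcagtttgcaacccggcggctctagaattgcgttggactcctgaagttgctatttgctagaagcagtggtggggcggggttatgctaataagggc
Igtp: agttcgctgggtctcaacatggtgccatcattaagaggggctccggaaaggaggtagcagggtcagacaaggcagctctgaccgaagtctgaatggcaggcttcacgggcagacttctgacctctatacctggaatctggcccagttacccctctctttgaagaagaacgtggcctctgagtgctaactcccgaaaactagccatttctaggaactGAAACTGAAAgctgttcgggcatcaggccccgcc
Gbp2: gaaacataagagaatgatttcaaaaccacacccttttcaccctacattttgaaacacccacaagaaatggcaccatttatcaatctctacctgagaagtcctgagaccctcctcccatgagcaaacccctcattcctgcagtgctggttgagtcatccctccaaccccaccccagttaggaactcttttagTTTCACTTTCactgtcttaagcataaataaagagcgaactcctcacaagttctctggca
Oas1a: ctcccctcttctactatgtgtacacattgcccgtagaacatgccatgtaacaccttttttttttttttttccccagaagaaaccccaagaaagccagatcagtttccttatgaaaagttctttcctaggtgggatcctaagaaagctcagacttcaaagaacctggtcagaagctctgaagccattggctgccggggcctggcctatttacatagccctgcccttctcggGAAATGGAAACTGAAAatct

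The matches begin 120 bases before the start in *Rsad2*, 59 in *Gbp2* and 34 in *Igtp*. In *Irgm1*, *Bst2* and *Oas1a*, 2 matches overlap, beginning 30 and 24, 130 and 124, and 20 and 14 bases before the start. *Rsad2* and *Gbp2* hold the element on the opposite strand, so that it reads as TTTC repeats. The element was found among genes that rose and among genes that fell. After NMDA in sh*Pax6* retinas it was found in 7 of the 9 genes called higher that had a window, and in 11 of the 19 that were not called. In WT retinas, it was found in 7 of 9 genes called lower and in 1 of 3 called higher. No match was found in the windows of *Irf7*, *Irf9*, *Ifit2*, *Oasl1*, *Oasl2*, *Xaf1*, *Ifi44*, *Ifi35*, *Cmpk2* and *Lgals3bp*, which says only that these letters are not in these windows.

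The members spanned a wide range of levels. *Ifitm3*, which blocks fusion of viruses with cell membranes, had the highest group mean, 247 FPKM in sh*Pax6* NMDA retinas, and *Oas2*, a synthetase that activates RNase L, had the lowest, 0.22 FPKM in JNK3 KO NMDA retinas. Summed over the 37 genes, the PBS libraries lay at 826 and 838 FPKM in WT, 755 and 671 in sh*Pax6* and 766 and 739.5 in JNK3 KO retinas. After NMDA the sums were 1134 and 1088 in WT, 1341 and 1426 in sh*Pax6* and 671 and 670.4 in JNK3 KO retinas. The order of the WT groups turned with the scaling. On TPM, where each library has the same total, the sums were 1526 and 1521 in WT PBS, 1408 and 1326 in WT NMDA, 1349 and 1212 in sh*Pax6* PBS and 2328 and 2473 in sh*Pax6* NMDA libraries, and 1184 to 1327 in the 4 JNK3 KO libraries. The sh*Pax6* NMDA libraries were the highest on either scale. The mean FPKM was highest in sh*Pax6* NMDA for 26 members, in WT NMDA for 6 (*Irf7*, *Irf9*, *Usp18*, *Bst2*, *Ifi35* and *Igtp*), in JNK3 KO NMDA for 3 (*Stat2*, *Ddx58* and *Eif2ak2*), in WT PBS for *Ifit2* and in sh*Pax6* PBS for *Cmpk2*. On TPM, WT NMDA was highest for 3 of those 6 (*Irf7*, *Usp18* and *Ifi35*), while *Bst2* was highest in sh*Pax6* NMDA, *Irf9* in JNK3 KO NMDA and *Igtp* in JNK3 KO PBS.

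**Figure D1:**
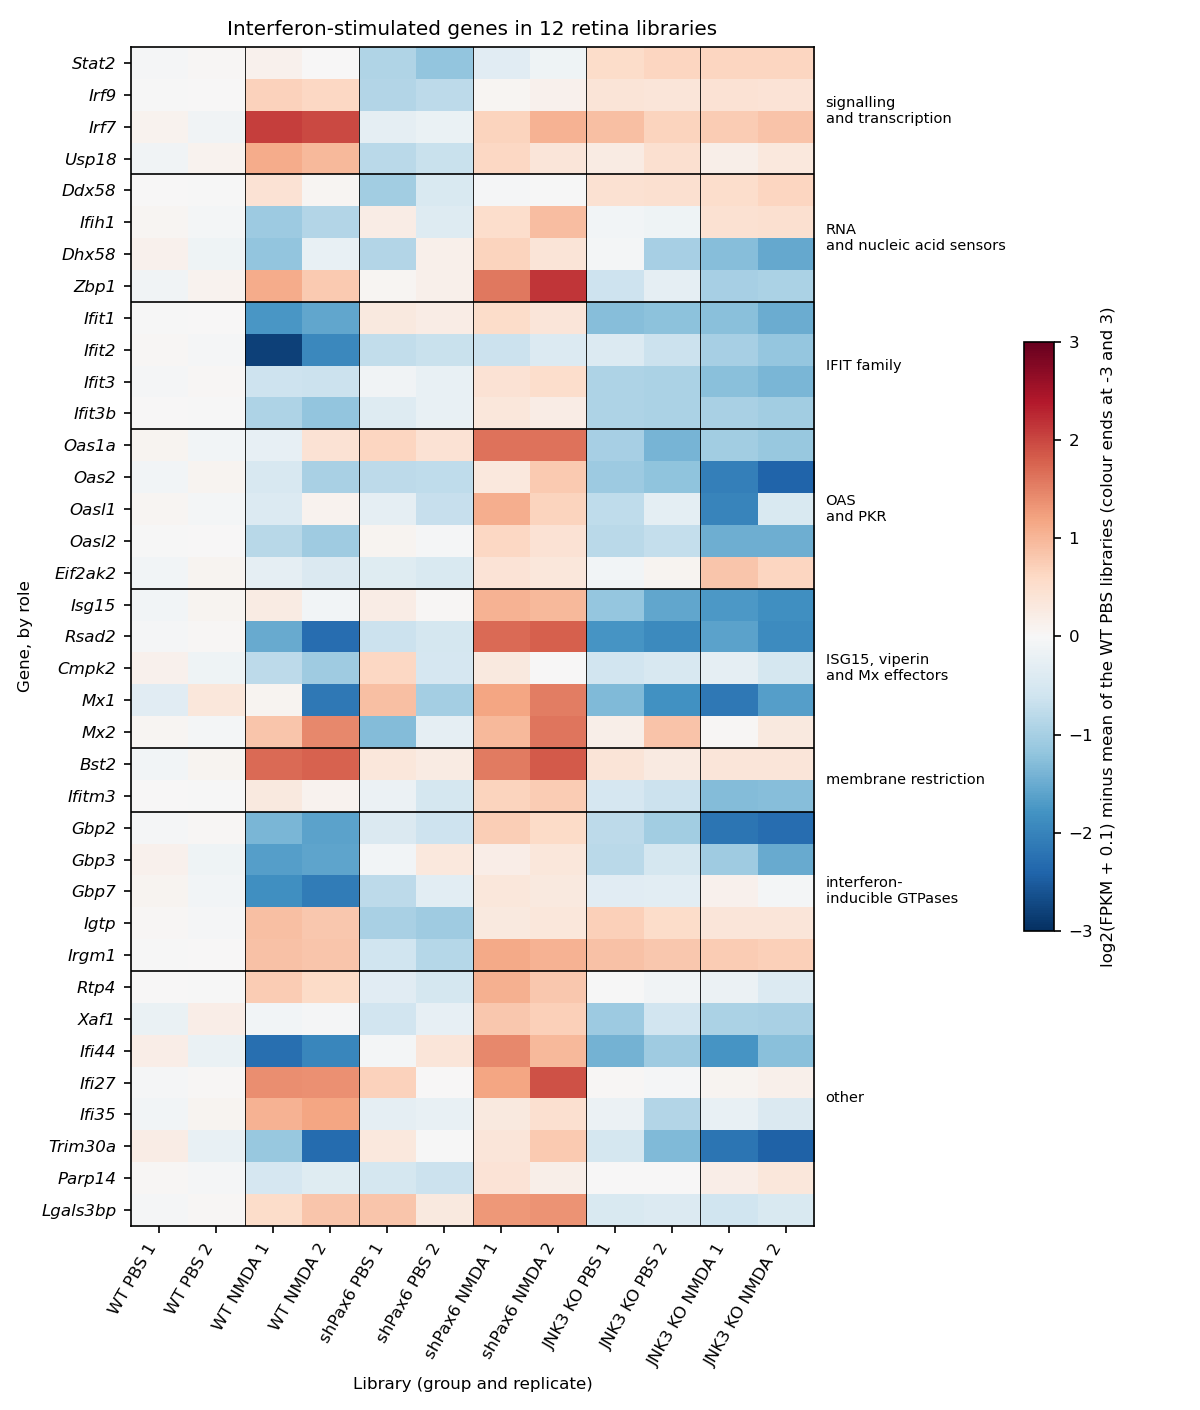
Colour gives log2(FPKM + 0.1) of the 37 genes (rows, by role) in each of the 12 libraries (columns) minus the mean of the 2 WT PBS libraries. The sh*Pax6* NMDA columns are above the WT PBS level on average for all members but *Ifit2*, *Stat2* and *Ddx58*, and the WT NMDA columns hold genes far above it, such as *Irf7* and *Bst2*, and far below it, such as *Ifit2* and *Gbp7*.

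In sh*Pax6* retinas, the members were higher after NMDA across the list. All 37 members had a positive log2 difference, with a median of 0.93 against 0.10 over all genes tested, and 15 were called higher and none lower. Over all genes, 8.64% were called higher and 4.94% lower. With no limit on the size of the difference, 28 members were higher and 0 lower, where 19.1% and 11% of all genes were. After quantile normalization 36 members were above 0, and after a correction for gene length 35 were, *Gbp3* and *Cmpk2* being the exceptions. Quantile normalization left 12 members called higher, where 6.38% of all genes were. It took the call from *Ifitm3* (0.93), *Oas1a* (0.95) and *Oas2* (0.97). In such bulk RNA, a change in the number of cells of a type and a change in RNA per cell cannot be told apart.

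Among the signalling members, *Irf7*, the factor that amplifies interferon production, was listed at 31.97 and 33.9 FPKM in PBS and 61.5 and 79.7 in NMDA libraries of sh*Pax6* retinas. It rose 2.12-fold (log2 difference 1.09, SE 0.13, adjusted p = 0.000301 from limma's test). *Usp18*, the protease that removes ISG15 and dampens the receptor, rose from 7.48 and 8.23 to 20.3 and 17 FPKM (log2 1.23, SE 0.14, limma adjusted p = 0.000207). Both NMDA libraries lay above both PBS libraries for each, although without sh*Pax6* NMDA replicate 2 the difference of *Irf7* was 0.90 and not called. *Stat2* and *Irf9*, parts of the complex that type I interferon activates, stayed under the limit on size, with log2 differences of 0.82 and 0.93 and limma adjusted p = 0.000466 and 6.56e-06.

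Of the nucleic acid sensors, *Zbp1*, which binds Z-form nucleic acid and can start necroptosis, was listed at 5.47 and 5.87 FPKM in the PBS and 16.1 and 23.8 in the NMDA libraries of sh*Pax6* retinas. The groups did not overlap, and the rise was 3.41-fold (log2 1.77, SE 0.22, limma adjusted p = 0.000336). With the spread taken from the groups compared alone, *Zbp1* was no longer called. The RNA helicases *Ifih1* (MDA5), *Ddx58* (RIG-I) and *Dhx58* (LGP2) had log2 differences of 0.81, 0.73 and 0.89 and were not called.

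The largest rise of the list was that of *Rsad2*, which encodes viperin, an enzyme that makes a chain-terminating nucleotide. Its FPKM were 2.88 and 3.13 in the PBS and 15.2 and 16.1 in the NMDA libraries, 5.07-fold higher (log2 2.34, SE 0.26, limma adjusted p = 0.000207). *Mx2*, a dynamin-like antiviral GTPase that the annotation types as a polymorphic pseudogene, rose from 1.42 and 3.04 to 7.26 and 11.4 FPKM (log2 2.07, SE 0.39, limma adjusted p = 0.0038). The NMDA libraries were the higher ones for both genes, but the spread of *Mx2* within a group was wide. *Isg15*, the ubiquitin-like modifier, went from 29.5 and 25.9 to 52.8 and 50.2 FPKM (log2 0.89, limma adjusted p = 0.00232) and missed the limit on size. *Cmpk2*, a mitochondrial nucleotide kinase whose gene lies beside *Rsad2* on chromosome 12, had a log2 difference of 0.10, with overlapping libraries (14.6 and 6.58 FPKM in PBS, 11.7 and 9.48 in NMDA). *Mx1* ranged from 0.58 to 2.48 FPKM in sh*Pax6* PBS alone, and its difference of 1.41 (SE 0.80) was not called.

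Both membrane restriction factors rose. *Bst2*, or tetherin, which holds budding virus at the cell surface, was listed at 54.7 and 51.4 FPKM in PBS and 128 and 155 in NMDA libraries of sh*Pax6* retinas, 2.66-fold higher (log2 1.41, SE 0.10, limma adjusted p = 1.24e-05). *Ifitm3* went from 134 and 104 to 239.8 and 254 FPKM (log2 1.06, SE 0.11, limma adjusted p = 0.000137). No library of one group reached into the other for these genes, but *Ifitm3* was at 0.88 and not called without sh*Pax6* PBS replicate 2.

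Of the 5 interferon-inducible GTPases, 3 rose. *Irgm1* and *Igtp* (IRGM3), immunity-related GTPases, were listed at 14.99 and 12.5 and at 12.4 and 11.7 FPKM in PBS, and at 49.97 and 46.9 and at 30.2 and 31.1 FPKM in NMDA libraries. Their log2 differences were 1.81 (SE 0.09, limma adjusted p = 2.19e-06) and 1.35 (SE 0.08, limma adjusted p = 4.52e-06). *Gbp2*, a guanylate-binding protein, went from 16.4 and 14.4 to 37.1 and 33.1 FPKM (log2 1.19, limma adjusted p = 0.000219). *Gbp7* and *Gbp3*, with differences of 0.85 and 0.15, were not called, and the members of this gene family share sequence, so that RSEM may divide reads between them.

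In the OAS family, whose products make the second messenger of RNase L, *Oas1a* was listed at 6.89 and 5.93 FPKM in PBS and 13.8 and 13.9 in NMDA libraries (log2 1.10, SE 0.24, limma adjusted p = 0.00823), and was at 0.996 and not called without sh*Pax6* PBS replicate 2. *Oas2* was low, at 0.77 and 0.78 FPKM in PBS and 1.74 and 2.48 in NMDA libraries (log2 1.32, SE 0.36, limma adjusted p = 0.0232), and was no longer called with a pseudocount of 1 (log2 0.80) or without sh*Pax6* PBS replicate 1 (1.31). *Oasl2* and *Eif2ak2*, the kinase PKR that halts translation, had adjusted p = 0.00379 and 0.00248 by limma with differences of 0.51 and 0.78, below the limit on size. *Oasl1* differed by 1.35 with an SE of 0.46 and was not called.

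None of the IFIT family, whose proteins bind the ends of foreign RNA and block its translation, was called, and its median log2 difference of 0.39 was the lowest of the 8 role groups. *Ifit1* was listed at 24.9 and 23.7 FPKM in PBS and 29.8 and 26.3 in NMDA libraries, a log2 difference of 0.20 (SE 0.12, limma adjusted p = 0.229), and *Ifit2* differed by 0.18. *Ifit3* and its near-identical copy *Ifit3b*, between which shared reads are divided, differed by 0.64 and 0.57. Their summed FPKM were 76.7 and 72.8 in PBS and 114 and 117 in NMDA libraries. The sum depends less on the division than either value, though not wholly, since the genes have spliced lengths of 1745 and 2000 bases.

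Of the other 8 members, *Rtp4*, a chaperone of membrane receptors, rose from 10.3 and 9.16 to 27.6 and 23.1 FPKM (log2 1.37, limma adjusted p = 7.92e-05), and *Xaf1*, an antagonist of the apoptosis inhibitor XIAP, from 13.9 and 17.6 to 36.4 and 34.1 FPKM (log2 1.17, limma adjusted p = 0.00172). *Ifi27* was called too, at 33.2 and 20.9 FPKM in PBS and 47.02 and 77.4 in NMDA libraries (log2 1.19, SE 0.24, limma adjusted p = 0.0054), but its libraries within a group lay far apart and leaving out sh*Pax6* PBS replicate 2 (0.86) or sh*Pax6* NMDA replicate 2 (0.83) took it under the limit. *Ifi44*, *Parp14*, *Lgals3bp*, *Ifi35* and *Trim30a* had differences of 1.06, 0.88, 0.76, 0.64 and 0.42 and were not called.

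**Figure D2:**
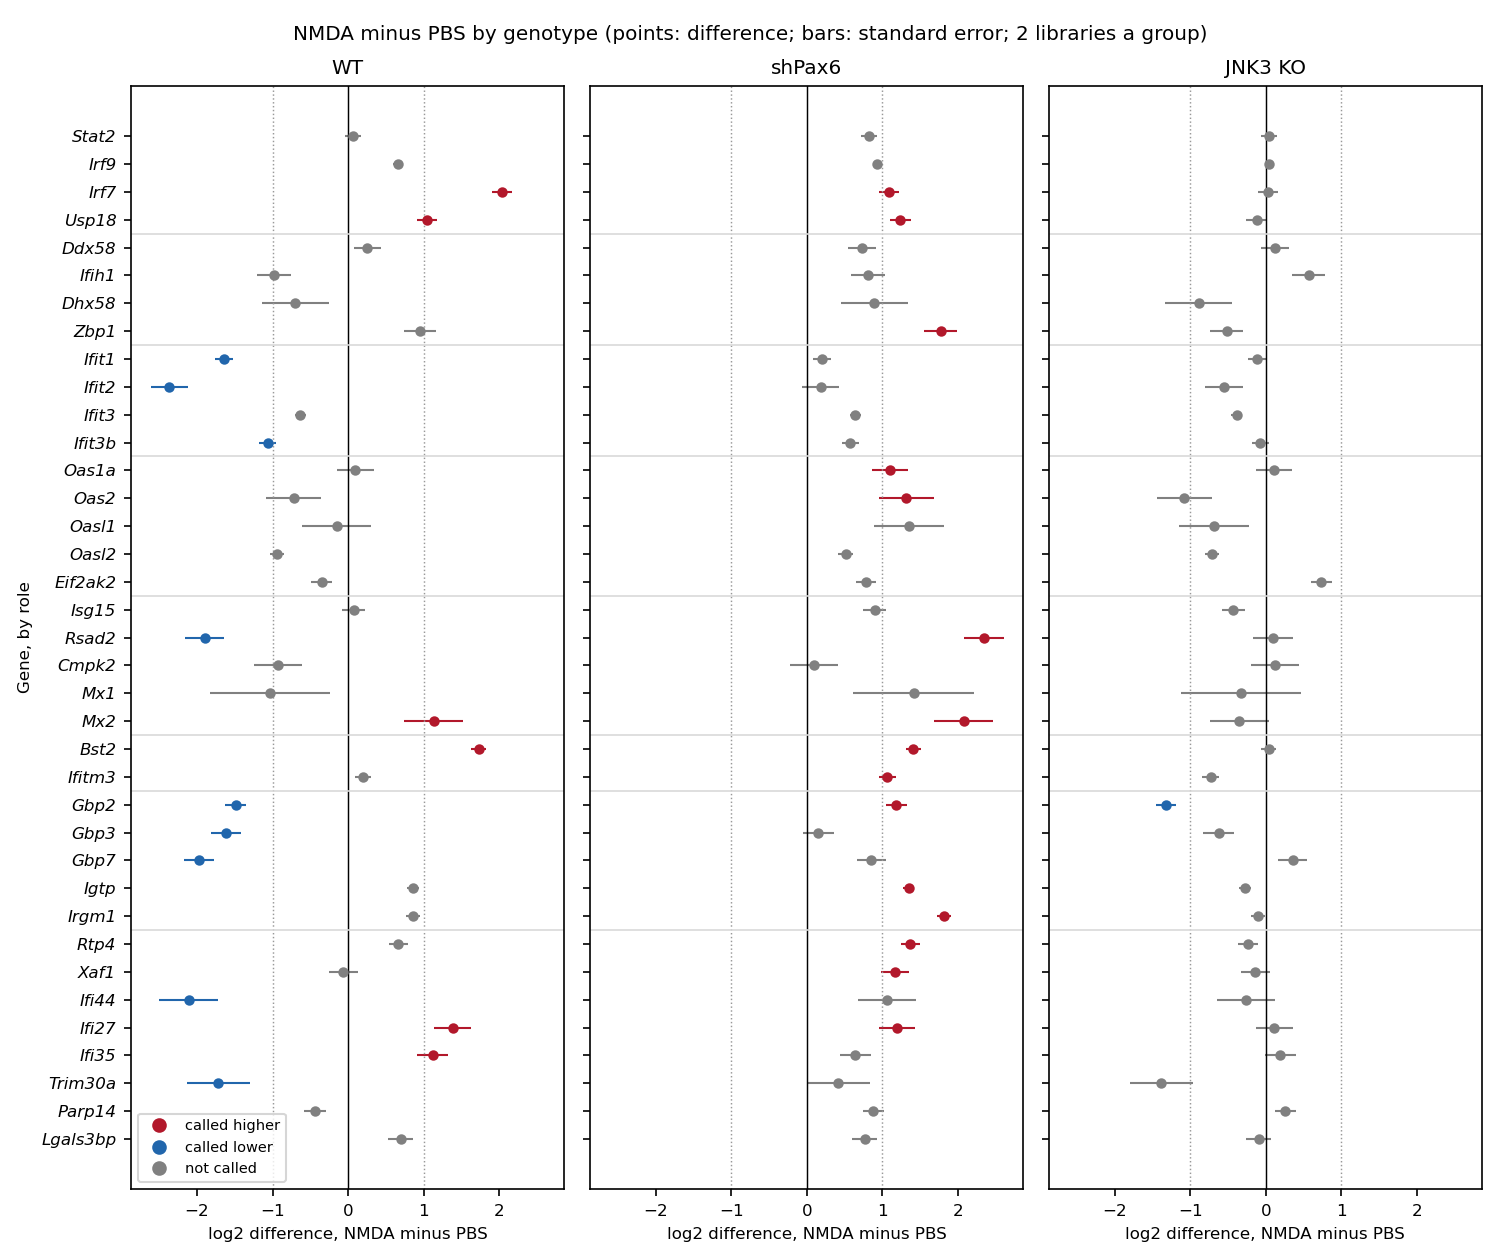
Each point is the log2 difference of 1 gene, NMDA minus PBS, with its standard error, in WT, sh*Pax6* and JNK3 KO retinas (2 libraries a group). Points in sh*Pax6* are all to the right of 0, those in WT lie on either side, and *Gbp2* is the only called point in JNK3 KO.

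In WT retinas, members were called in both directions after NMDA, as all genes were. Of the 37 members, 6 were called higher and 9 lower, with a median log2 difference of -0.15 against -0.09 over all genes. Of all genes, 14.2% were called higher and 20.9% lower, so that large changes were common and the counts of members lay near these shares. On TPM, which equalizes the library totals and with the same filter left 17979 genes to test, 2 members were higher and 16 lower, with a member median of -0.71 and an all-gene median of -0.68. Of all genes, 5.18% were higher and 34.3% lower on TPM.

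The rises were led by *Irf7*, which went from 41.7 and 36.04 FPKM in the WT PBS to 164 and 154 in the WT NMDA libraries, 4.09-fold (log2 2.03, SE 0.13, limma adjusted p = 1.44e-06). *Bst2* went from 40.8 and 46.1 to 141 and 147 FPKM (log2 1.73, SE 0.10, limma adjusted p = 7.33e-07). For both, the 2 NMDA libraries were close to each other and far above PBS. *Ifi27*, a mitochondrial interferon-inducible protein, rose from 20.2 and 21 to 54.1 and 53.8 FPKM (log2 1.38, SE 0.24, limma adjusted p = 0.000825), and *Ifi35*, a leucine zipper protein, from 9.92 and 11.02 to 21.8 and 23.96 FPKM (log2 1.12, SE 0.21, limma adjusted p = 0.00116). *Usp18* rose from 12.1 and 14.2 to 28.6 and 25.9 FPKM (log2 1.04, limma adjusted p = 0.000146) and *Mx2* from 3.83 and 3.52 to 6.62 and 10.1 FPKM (log2 1.13, SE 0.39, limma adjusted p = 0.031). Of the 6, *Irf7* alone was also called on TPM, after quantile normalization, with the length correction and with each WT library left out. *Usp18* lost its call without WT PBS replicate 1 (0.93) or WT NMDA replicate 1 (0.97), and *Mx2* without WT PBS replicate 1 (1.19), WT PBS replicate 2 (1.08) or WT NMDA replicate 2 (0.83).

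The falls included the IFIT family. *Ifit1* was listed at 20.3 and 20.4 FPKM in the WT PBS and 6.02 and 6.87 in the WT NMDA libraries, 3.13-fold lower (log2 -1.64, SE 0.12, limma adjusted p = 2.78e-06). *Ifit2* went from 11.9 and 11.5 to 1.6 and 2.98 FPKM, 5.15-fold lower (log2 -2.37, SE 0.25, limma adjusted p = 3.29e-05), the largest fall of the list. *Ifit3b* fell by 1.06 on the log2 scale, -0.93 and not called without WT NMDA replicate 2, and *Ifit3*, at -0.63, was below the limit on size with a limma adjusted p = 5.50e-05. The sum of this pair was 83.7 and 86.6 FPKM in PBS and 53.0 and 50.6 in NMDA libraries, with both NMDA libraries below both PBS libraries.

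The guanylate-binding proteins fell together. *Gbp2* went from 21.5 and 22.8 to 8.55 and 7.17 FPKM (log2 -1.49, limma adjusted p = 1.21e-05), *Gbp3* from 13.01 and 10.7 to 3.66 and 3.9 (log2 -1.62, limma adjusted p = 0.000102) and *Gbp7* from 6.34 and 5.7 to 1.61 and 1.32 (log2 -1.97, SE 0.19, limma adjusted p = 2.16e-05). The immunity-related GTPases of the same role group did the reverse without reaching the limit on size: *Igtp* was listed at 24.98 and 24.1 FPKM in PBS and 46.3 and 43.2 in NMDA libraries (log2 0.86, limma adjusted p = 1.26e-05) and *Irgm1* at 22.6 and 22.9 FPKM in PBS and 42.02 and 40.6 in NMDA libraries (log2 0.86, limma adjusted p = 3.37e-05). The NMDA and PBS libraries of these 5 genes did not overlap, a description only, since the share of all genes so separated was not counted.

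*Rsad2* fell from 4.44 and 4.7 to 1.53 and 0.86 FPKM (3.73-fold lower, log2 -1.90, SE 0.26, limma adjusted p = 0.000191). *Ifi44* was low, at 1.5 and 1.12 FPKM in PBS and 0.19 and 0.26 in NMDA libraries, and its log2 difference of -2.11 (SE 0.39, limma adjusted p = 0.00114) shrank to -0.91 with a pseudocount of 1. *Trim30a*, a ubiquitin ligase that restrains Toll-like receptor signalling, fell from 5.69 and 4.15 to 2.17 and 0.9 FPKM (log2 -1.72, SE 0.42, limma adjusted p = 0.00573) and was not called without WT PBS replicate 1 (-1.496). *Isg15*, *Oas1a*, *Xaf1* and *Stat2* had FPKM in the WT NMDA libraries close to those in PBS, with log2 differences of 0.07, 0.10, -0.06 and 0.06. *Irf9*, *Zbp1*, *Rtp4*, *Lgals3bp*, *Ddx58* and *Ifitm3* had positive differences of 0.66, 0.95, 0.67, 0.69, 0.26 and 0.20, and *Ifih1*, *Oasl2*, *Cmpk2*, *Oas2*, *Dhx58*, *Parp14*, *Eif2ak2*, *Oasl1* and *Mx1* had negative ones of -0.98, -0.94, -0.93, -0.72, -0.70, -0.44, -0.35, -0.15 and -1.04. None of these 19 was called, and with the length correction the signs of *Isg15* (-0.76), *Ifitm3* (-0.58), *Oas1a* (-0.56), *Xaf1* (0.18) and *Parp14* (0.41) turned.

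**Figure D3:**
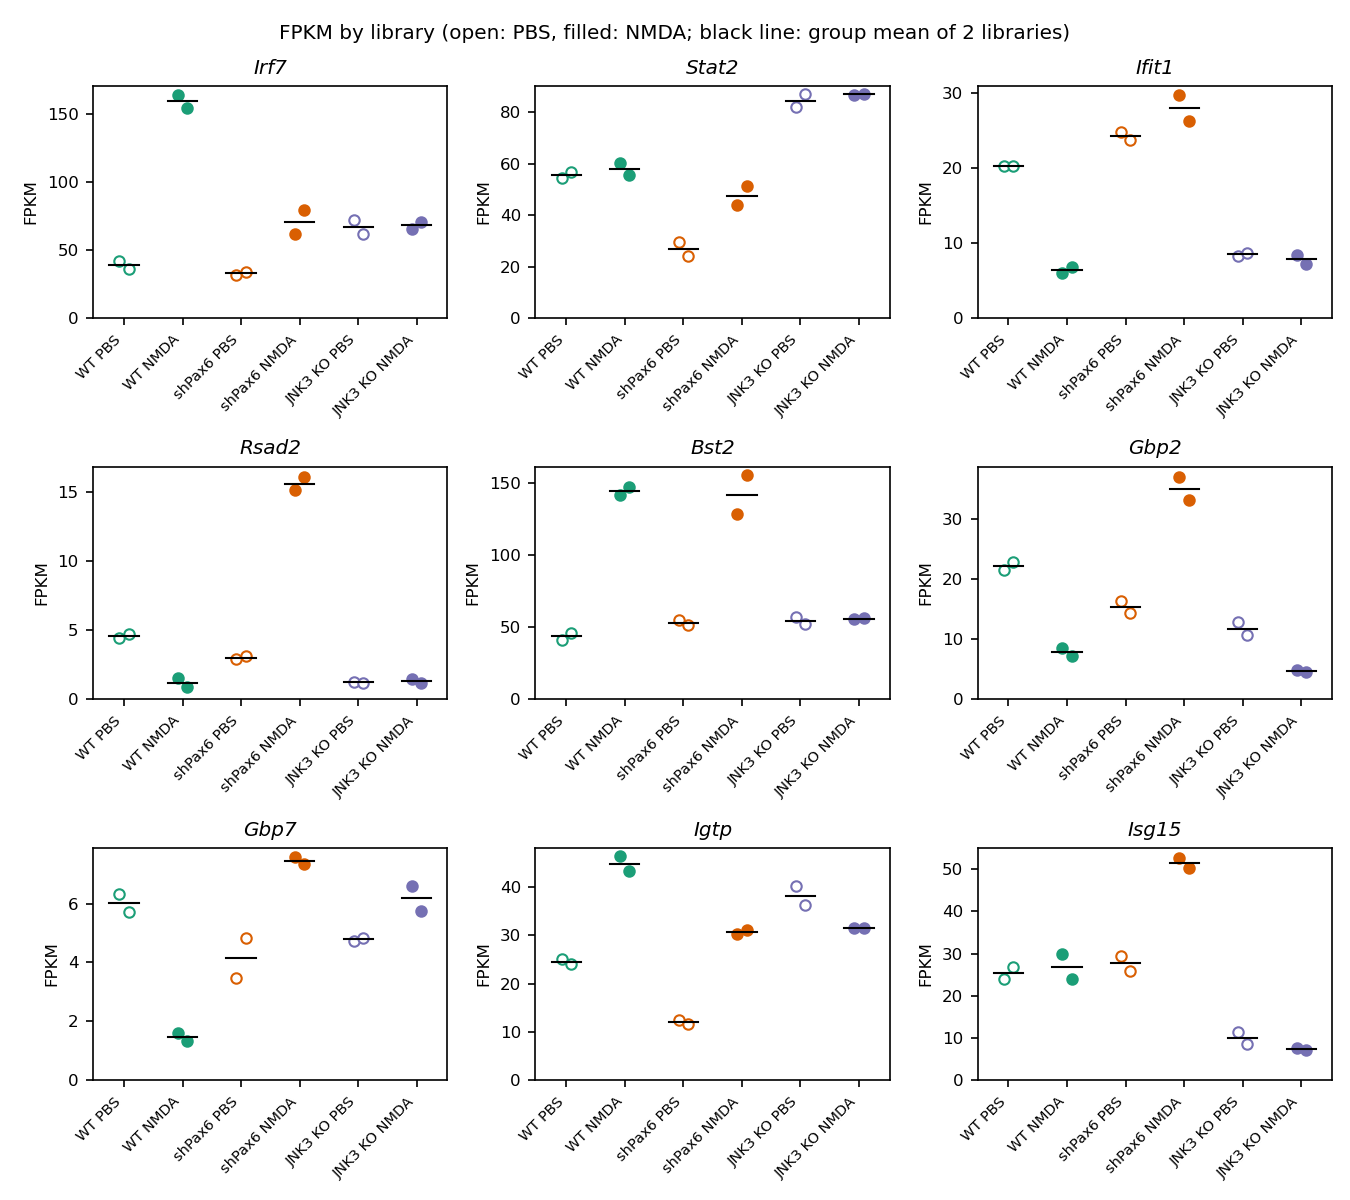
FPKM of 9 members in each library (points; open for PBS, filled for NMDA), with group means as black lines. *Irf7* and *Bst2* rise in WT and sh*Pax6* retinas after NMDA, *Ifit1*, *Rsad2*, *Gbp2* and *Gbp7* are lower in WT NMDA than in WT PBS and the sh*Pax6* groups, and *Stat2* and *Igtp* have their lowest points in sh*Pax6* PBS.

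The length of a gene moved with its response in WT. Across 16452 genes with a spliced length in GENCODE M21, Spearman's rho of length with the WT log2 difference was -0.446, against -0.111 in sh*Pax6* and 0.198 in JNK3 KO retinas. For the difference from WT PBS, it was -0.272 in JNK3 KO PBS and -0.0153 in sh*Pax6* PBS retinas, and 0.21 and -0.36 among the 37 members. These are descriptions across genes, which share libraries. Among the 37 members rho was -0.35 in WT retinas and -0.139 with sh*Pax6*. Median WT differences of members were 0.15 under 2 kb (8 genes), 0.26 from 2 to 4 kb (14 genes) and -0.72 over 4 kb (15 genes), and those of all genes 0.75, 0.23 and -0.61. The member median was thus below that of all genes in the shortest class.

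With each library's trend on length removed, 4 members were called higher and 10 lower in WT, where 11.5% and 13.1% of all genes were. The 9 falls all kept their call, among them *Ifit1* at -1.97 and *Gbp2* at -1.87, and *Ifit3* joined them at -1.34. *Irf7*, at 2.05, and *Mx2*, at 1.11, remained higher, *Irgm1* (1.29) and *Irf9* (1.03) were added, and *Bst2* (0.82), *Ifi27* (0.56), *Ifi35* (0.40) and *Usp18* (0.76) were no longer called. In sh*Pax6* retinas the correction left 11 members higher and 0 lower, where 7.08% and 5.96% of all genes were. *Irf7* (0.93), *Ifitm3* (0.805), *Oas1a* (0.90) and *Ifi27* (0.97) were no longer called there. The part of the length trend in the uncorrected values was not tested further.

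**Figure D4:**
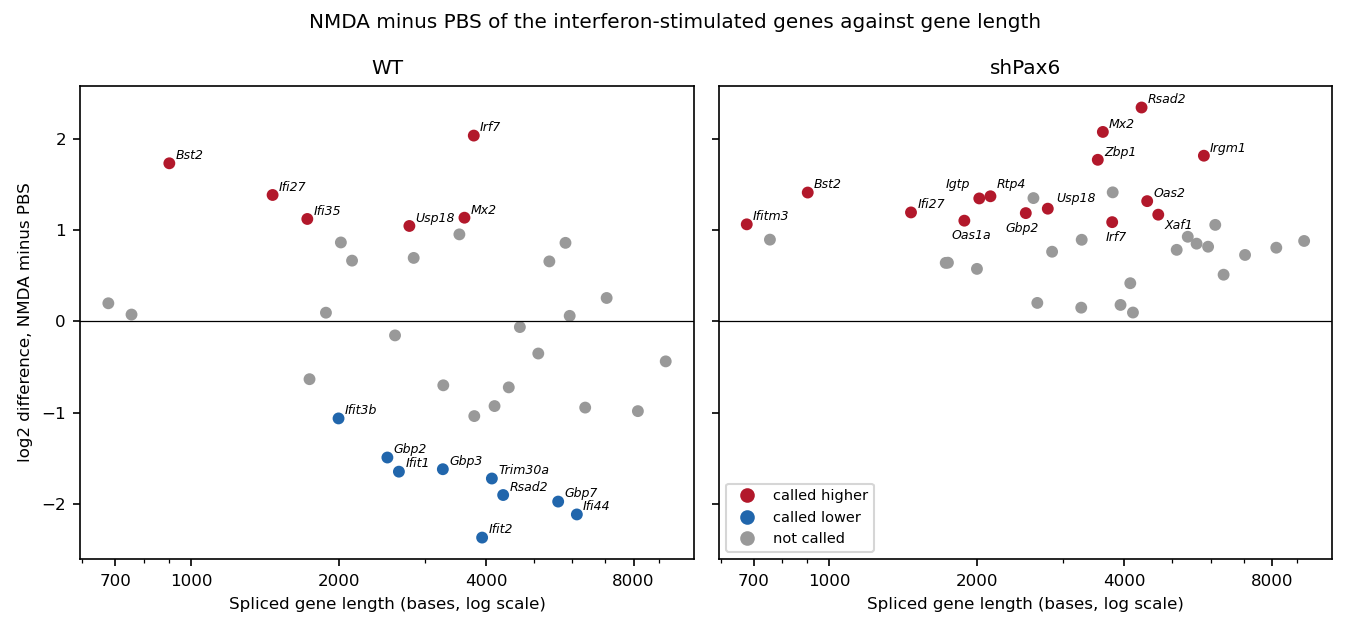
Log2 difference (NMDA minus PBS) of the 37 genes against spliced gene length (log axis, bases) in WT and sh*Pax6* retinas, with called genes coloured and named. In WT the 9 genes called lower run from 2000 (*Ifit3b*) to 6129 bases (*Ifi44*) and 3 of the 6 called higher are shorter, while in sh*Pax6* the 15 called genes run from 678 (*Ifitm3*) to 5810 bases (*Irgm1*).

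The transcript table gave a second view of these changes. For the 31 members with more than 1 annotated transcript, the mean transcript length weighted by FPKM was over 10% shorter after NMDA for 6 in WT (19.4%), 1 in sh*Pax6* (3.23%) and 3 in JNK3 KO retinas (9.68%), against 21.4%, 16.2% and 7.39% of all such genes tested. The largest such shift in WT was that of *Lgals3bp*, a secreted glycoprotein, from 2146 bases in WT PBS to 1151 in WT NMDA, where its main transcript went from 88.9% to 28.3% of the gene's FPKM. The shift of *Zbp1* was from 1385 to 896 bases. Other members went the other way in WT, such as *Gbp7* from 4015 to 5401 and *Stat2* from 3061 to 4105 bases. By any amount, 13 of the 31 members were shorter in WT (41.9%), against 44.1% of all such genes. The median change of members was 0.0158%, against 0.218%. For *Irf9*, 1 transcript went from 53.7% to 9.9% of the gene's FPKM and another from 31.3% to 80.7%. RSEM assigns reads to transcripts by estimation, and no test was made of these shares.

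The responses of WT and sh*Pax6* retinas were compared directly as a difference of differences. The WT response was lower for 17 members and higher for none, with a median of -1.14 against -0.28 over all genes. Over all genes 21.7% were called lower and 10.3% higher. *Rsad2* differed most, having risen 5.07-fold in sh*Pax6* and fallen 3.73-fold in WT retinas, a difference of -4.24 on the log2 scale (SE 0.37, limma adjusted p = 2.77e-05). *Gbp7*, which went from 3.47 and 4.82 to 7.58 and 7.34 FPKM in sh*Pax6* retinas, differed by -2.82 (SE 0.27, limma adjusted p = 5.01e-05). All 4 IFIT genes were called, between -1.27 for *Ifit3* and -2.55 for *Ifit2* (SE 0.35, limma adjusted p = 0.00037), the latter at 6.93 and 7.31 FPKM in sh*Pax6* PBS and 7.45 and 8.76 in sh*Pax6* NMDA libraries.

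*Gbp2* rose in one and fell in the other, with a difference of -2.67 (SE 0.19, limma adjusted p = 9.32e-06). *Ifi44*, at 1.24 and 1.7 FPKM in sh*Pax6* PBS and 3.68 and 2.66 in sh*Pax6* NMDA libraries, differed by -3.17 (SE 0.55, limma adjusted p = 0.00128). *Trim30a*, *Oas2*, *Ifih1*, *Gbp3*, *Oasl2*, *Parp14*, *Xaf1*, *Eif2ak2* and *Oas1a* made up the rest, from -2.14 to -1.01. *Oas1a* lost its call when any of the 8 libraries but sh*Pax6* PBS replicate 1 and WT NMDA replicate 2 was left out, at -0.66 to -1.10, and *Trim30a* without WT PBS replicate 1, sh*Pax6* PBS replicate 2 or sh*Pax6* NMDA replicate 2, at -1.91 to -1.98. *Irf7* had a positive difference of 0.95 (limma adjusted p = 0.00238) that missed the limit on size, and became called at 1.12 with the length correction. *Bst2* differed by 0.32 (SE 0.14, limma adjusted p = 0.0843) and *Usp18* by -0.19 (SE 0.20, limma adjusted p = 0.448). TPM moved the count to 27 lower and the length correction to 15 lower and 1 higher, with member medians of -1.66 and -0.997 and all-gene medians of -0.82 and 0.001. Of all genes, 34% were called lower and 3.85% higher on TPM, and 11.8% and 10.3% with the length correction. With the length correction *Oasl2* (-0.86), *Xaf1* (-0.87), *Ifih1* (-0.997), *Parp14* (-0.43) and *Eif2ak2* (-0.71) were no longer called, and *Isg15* (-1.40), *Ifitm3* (-1.39) and *Rtp4* (-1.06) were added on the lower side. Quantile normalization took the call from *Oas1a* (-0.45), *Eif2ak2* (-0.58), *Parp14* (-0.74), *Oas2* (-1.34) and *Trim30a* (-1.61). The sign of *Bst2* turned with the length correction, to -0.35.

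In JNK3 KO retinas, 1 member was called after NMDA. *Gbp2* was lower, at 12.8 and 10.7 FPKM in PBS and 4.78 and 4.49 in NMDA libraries (log2 -1.32, SE 0.13, limma adjusted p = 0.000569), and no member was called higher, against 1.87% lower and 0.777% higher over all genes. The median of members was -0.12, against -0.02 over all genes. With no limit on size, *Eif2ak2* was higher (6.39 and 7.09 to 12.1 and 10.6 FPKM, log2 0.74), and *Ifit3*, *Ifitm3* and *Oasl2* joined *Gbp2* on the lower side, with differences of -0.38, -0.73 and -0.71. Over all genes, 4.33% were higher and 6.1% lower at that threshold.

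*Irf7* and *Bst2*, the leading rises of WT, had overlapping PBS and NMDA libraries in JNK3 KO retinas, *Irf7* at 72.3 and 61.9 FPKM in PBS and 65.8 and 70.7 after NMDA (log2 0.03, SE 0.13) and *Bst2* at 56.8 and 52.1 and then 55.8 and 56.02 FPKM (log2 0.04, SE 0.10). *Rsad2* was at 1.26 and 1.15 FPKM in PBS and 1.43 and 1.17 after NMDA. The same order of groups gave 4.74 and 4.83, then 6.6 and 5.76 FPKM for *Gbp7*.

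Set against JNK3 KO, the WT response was higher for 7 members (*Irf7*, *Bst2*, *Mx2*, *Zbp1*, *Ifi27*, *Usp18* and *Igtp*) and lower for 7 (*Gbp7*, *Rsad2*, *Ifi44*, *Ifit2*, *Ifih1*, *Ifit1* and *Eif2ak2*), where 15.5% and 20.1% of all genes were. *Irf7* differed by 2.01 (SE 0.18, limma adjusted p = 2.22e-05), *Bst2* by 1.69 (SE 0.14, limma adjusted p = 1.19e-05) and *Gbp7* by -2.33 (SE 0.27, limma adjusted p = 0.000103). *Zbp1*, at 4.94 and 5.65 FPKM in WT PBS, 11.5 and 9.24 in WT NMDA, 3.38 and 4.35 in JNK3 KO PBS and 2.59 and 2.71 in JNK3 KO NMDA libraries, differed by 1.47 (SE 0.30, limma adjusted p = 0.00304). *Ifih1*, at 4.88 and 4.52, 2.16 and 2.51, 4.46 and 4.3 and 6.48 and 6.6 FPKM in the same groups, differed by -1.55 (SE 0.31, limma adjusted p = 0.0027). The estimates in WT and JNK3 KO retinas were of opposite sign for both sensors. The responses of *Mx2* and *Ifi27* differed by 1.48 and 1.27, and those of *Rsad2*, *Ifi44* and *Ifit2* by -1.996, -1.85 and -1.81, with limma adjusted p between 0.00161 (*Rsad2*) and 0.0488 (*Mx2*). On TPM the split was 2 higher and 11 lower, where 6.31% and 30.9% of all genes were. With the length correction it was 3 higher and 7 lower, where 12.5% and 11.8% of all genes were, and not all of them were the members named above. With the length correction *Bst2* (0.64), *Igtp* (0.43), *Ifi27* (0.31), *Usp18* (0.80), *Mx2* (1.41), *Ifih1* (-0.71), *Eif2ak2* (-0.75) and *Ifi44* (-1.33) were no longer called, and *Irgm1* (1.43), *Ifit3* (-1.09), *Ifit3b* (-1.71) and *Gbp3* (-1.19) were added. Quantile normalization took the call from *Ifi44*, *Ifi27*, *Igtp* and *Eif2ak2*. With 1 library left out, *Mx2* lost its call in 6 of 8 cases (1.14 to 1.61), *Ifi44* without WT PBS replicate 1, JNK3 KO PBS replicate 1 or JNK3 KO NMDA replicate 2 (-1.59 to -1.67), and *Eif2ak2* without JNK3 KO NMDA replicate 1 (-0.99). The WT libraries are shared by this comparison and the one with sh*Pax6*.

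Under PBS, no member was called higher in retinas with the AAV vector than in WT retinas. *Stat2* and *Igtp* were called lower, with a median of -0.35 over the list and -0.06 over all genes. Of all genes 0.522% were called higher and 3.9% lower. The FPKM of *Stat2* were 54.4 and 56.7 in WT and 29.7 and 24.3 in sh*Pax6* PBS libraries, 2.07-fold lower (log2 -1.05, SE 0.11, limma adjusted p = 0.00026). Those of *Igtp* were 24.98 and 24.1 in WT and 12.4 and 11.7 in sh*Pax6* PBS libraries, 2.04-fold lower (log2 -1.03, SE 0.08, limma adjusted p = 6.04e-05). The groups did not overlap for either gene, but the differences sat close to the limit on size: without sh*Pax6* PBS replicate 2 they were -0.90 and -0.98, and with the length correction -0.96 and -0.98, so that neither was called.

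With no limit on size, 8 members were lower and 1 higher, against 11.2% and 5.36% of all genes. The other 6 lower ones were *Irf9*, at 54.5 and 54.8 FPKM in WT and 29.8 and 31.6 in sh*Pax6* PBS libraries (log2 -0.83, SE 0.06, limma adjusted p = 3.81e-05), *Irgm1* (-0.73), *Usp18* (-0.74), *Ddx58* (-0.75), *Parp14* (-0.58) and *Gbp2* (-0.53). *Lgals3bp* was the higher one, at 32.9 and 34.7 FPKM in WT and 60.5 and 41.2 in sh*Pax6* PBS libraries (log2 0.56, limma adjusted p = 0.0453). Among the effectors often read as signs of interferon exposure, the difference was 0.12 (SE 0.15) for *Isg15*, 0.53 (SE 0.24) for *Oas1a*, 0.26 (SE 0.12) for *Ifit1*, -0.16 (SE 0.07) for *Ifit3* and -0.59 (SE 0.26) for *Rsad2*, with limma adjusted p between 0.171 and 0.653. A p above the threshold does not show that these levels were equal.

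JNK3 KO and WT retinas under PBS differed in few genes, and 3 of them were members. *Rsad2*, *Isg15* and *Ifit1* were called lower and none higher, where 0.127% of all genes were called lower and 0.103% higher. The FPKM of *Isg15* were 24 and 26.8 in WT and 11.4 and 8.61 in JNK3 KO PBS libraries (log2 -1.35, SE 0.15, limma adjusted p = 0.00685). *Ifit1* was at 20.3 and 20.4 FPKM in WT and 8.32 and 8.66 in JNK3 KO (log2 -1.25, SE 0.12, limma adjusted p = 0.00356), and *Rsad2* at 4.44 and 4.7 FPKM in WT and 1.26 and 1.15 in JNK3 KO (log2 -1.84, SE 0.26, limma adjusted p = 0.0174). The JNK3 KO libraries lay below both WT libraries for all 3. *Rsad2* lost its call with any of the 4 libraries left out, *Isg15* with either WT PBS library left out, and 0 members were called when the spread was estimated from these 4 libraries alone.

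With no limit on size, 8 members were lower and 5 higher, against 0.407% and 1.1% of all genes. The higher ones were factors and immunity-related GTPases: *Irf7* at 72.3 and 61.9 FPKM in JNK3 KO against 41.7 and 36.04 in WT (log2 0.79, limma adjusted p = 0.0261), *Irgm1* (0.85), *Igtp* (0.63), *Stat2* (0.60) and *Irf9* (0.38). The lower ones besides those called were *Ifit3* (-0.94), *Ifit3b* (-0.94), *Oasl2* (-0.77), *Gbp2* (-0.92) and *Ifitm3* (-0.57). The median of the list was -0.52, against 0 over all genes.

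**Figure D5:**
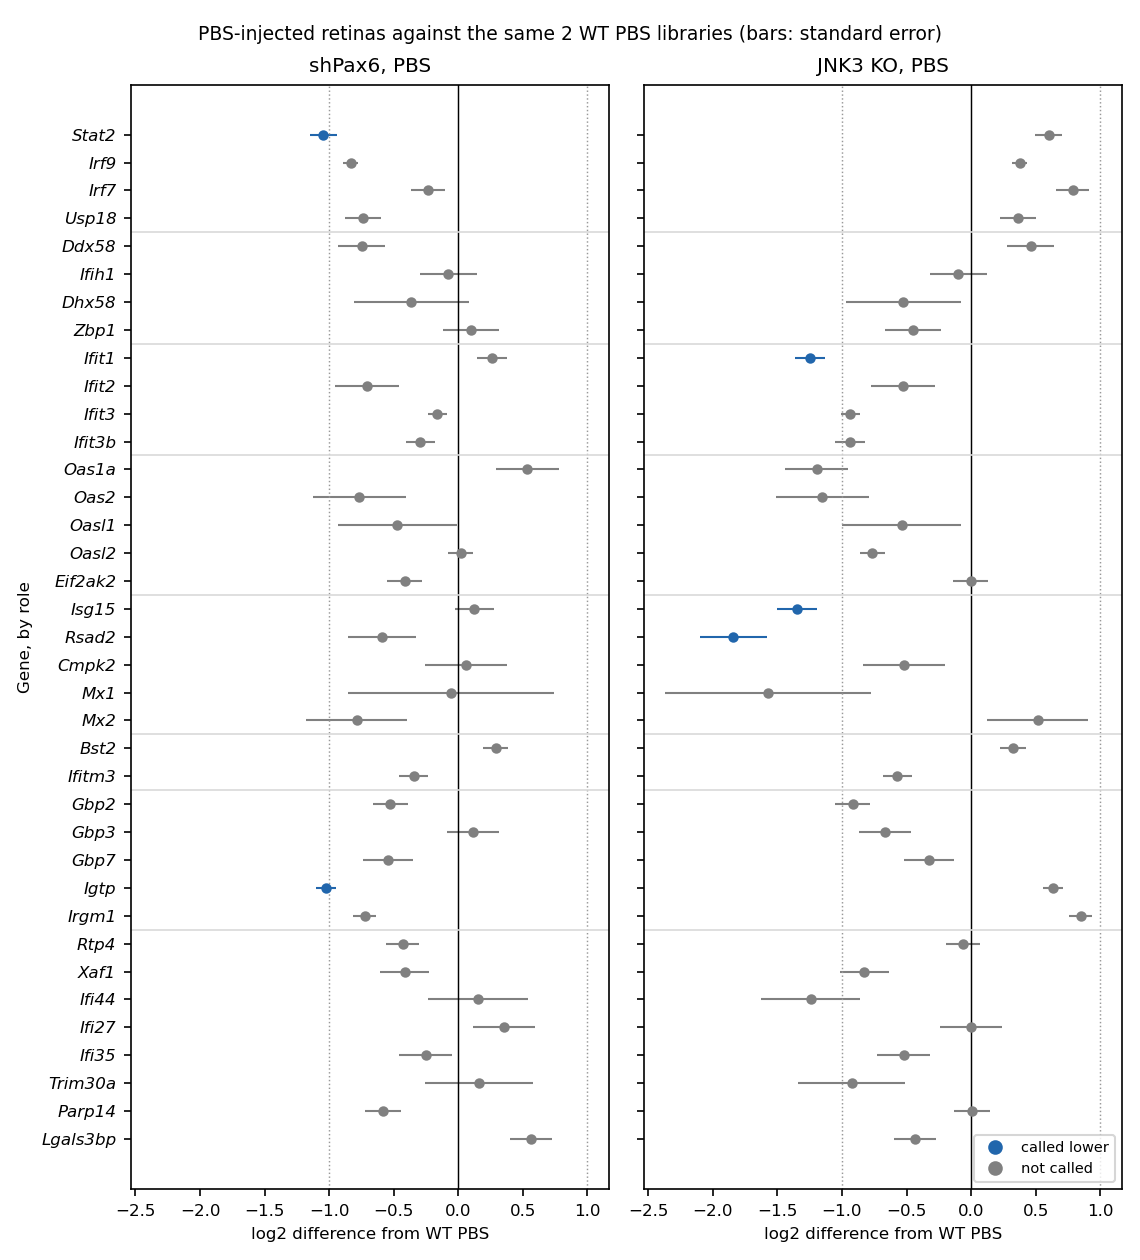
Log2 difference from the 2 WT PBS libraries, with its standard error, of each member in sh*Pax6* PBS (left) and JNK3 KO PBS (right) retinas. *Stat2*, *Irf9*, *Irgm1* and *Igtp* are below WT on the left and above it on the right, and *Ifit1*, *Isg15* and *Rsad2* are called lower on the right. The WT libraries are shared by both panels.

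The genes that make, receive and pass on interferon were read from a list of 56 pathway genes that are not members, of which 54 were in the table and 30 passed the filter. None of the 21 interferon genes passed it, and 18 of them were listed at 0 in all 12 libraries. *Ifng*, type II interferon, was listed at 1.79 FPKM in sh*Pax6* NMDA replicate 1, 0 in replicate 2, and 0.04 in JNK3 KO PBS replicate 1. *Ifnb1* was listed at 0.29 FPKM in sh*Pax6* NMDA replicate 2 and at 0 elsewhere, and *Ifnz* at 0.06 and 0.03 FPKM in 1 JNK3 KO PBS and 1 JNK3 KO NMDA library. No interferon gene was thus listed above 0 in both libraries of a group.

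Receptors were present throughout. *Ifnar1*, the shared type I receptor chain, lay between 15.0 and 17.8 FPKM in all 12 libraries, and *Ifnar2*, its partner, was called higher after NMDA in sh*Pax6* retinas (8.35 and 7.84 to 17.5 and 16.3 FPKM, log2 1.05, limma adjusted p = 0.000256). In the whole pathway list, NMDA was followed by 12 genes called higher and 1 lower in sh*Pax6*, 7 and 3 in WT and 1 and 1 in JNK3 KO retinas. Against these 30 genes, the shares of all genes called higher and lower were 8.64% and 4.94%, 14.2% and 20.9%, and 0.777% and 1.87%. *Irf8* and *Socs3* were called higher in both WT and sh*Pax6* retinas, *Irf8* by 1.26 and 2.19 and *Socs3*, a feedback inhibitor of JAK kinases, by 1.01 and 2.35 on the log2 scale. Both of them, with *Ikbke*, were lower in sh*Pax6* PBS than in WT PBS retinas, which were the 3 pathway genes called there, and 0 were called between JNK3 KO and WT under PBS.

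Markers of some other cell types were highest in the group where the members were highest. The summed FPKM of 12 microglia and macrophage markers were 78.6 to 86.9 in WT PBS, 151 to 161 in WT NMDA, 203 to 227 in sh*Pax6* PBS and 635 to 652 in sh*Pax6* NMDA retinas, and 92.4 to 98.7 in the 4 JNK3 KO libraries. None of these markers was at 0 in both libraries of a group. The sums do not stand for every marker: after NMDA 7 of the 12 were called higher and 0 lower in sh*Pax6*, but 4 higher and 3 lower (*Itgam*, *P2ry12* and *Tmem119*) in WT retinas, and between sh*Pax6* PBS and WT PBS 5 were higher and *Itgam* was lower. The list of infiltrating monocytes gave 144 to 158, 204 to 205, 44.87 to 45.01 and 306 to 317 FPKM in the same order of WT and sh*Pax6* groups and 77.2 to 112 in JNK3 KO libraries. T and NK cell markers gave 2.03 to 3.56 in WT, 2.5 to 2.84 in sh*Pax6* PBS, 11.9 to 15.3 in sh*Pax6* NMDA and 1.31 to 3.84 FPKM in JNK3 KO libraries, with *Ncr1* at 0 in WT NMDA and both sh*Pax6* groups. The sums of these lists were thus highest in sh*Pax6* NMDA, where the members rose together, and their part in that rise was not tested. In sh*Pax6* PBS the microglia sum was above WT, the monocyte sum was below it, and no member was called higher.

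Neutrophil markers had their highest sum in WT NMDA retinas. It was 1947 to 1985 FPKM in WT NMDA and 212 to 235 in WT PBS, but 66.4 to 73.0 in sh*Pax6* NMDA and 5.16 to 6.09 in sh*Pax6* PBS. In JNK3 KO it was 156 to 169.7 in PBS and 13.1 to 13.9 in NMDA libraries. *Elane*, *Ly6g* and *Mpo* were at 0 in both sh*Pax6* groups and in JNK3 KO NMDA, and *Elane* in both WT groups too. Of the 6 markers tested, NMDA was followed by 4 called higher in WT, 5 higher in sh*Pax6* and 4 lower in JNK3 KO. The WT response was higher than that of sh*Pax6* for *Ly6g* and lower for *Cxcr2*, *Csf3r* and *S100a8*. B cell and plasmacytoid dendritic cell markers reached 5.08 to 5.87 FPKM in sh*Pax6* NMDA and no more than 1.96 elsewhere. RGC markers summed to 540 to 561 FPKM in WT PBS, 299 to 319 in WT NMDA, 159 to 161 in sh*Pax6* PBS, 39.3 to 46.7 in sh*Pax6* NMDA, 514 to 555 in JNK3 KO PBS and 125 to 128 in JNK3 KO NMDA. Endothelial markers ran from 36.4 in WT NMDA to 85.6 in JNK3 KO NMDA, Müller glia markers from 937 in WT PBS to 3169 in sh*Pax6* NMDA, RPE markers from 3.52 in sh*Pax6* NMDA to 68.8 in WT NMDA, lens markers from 88.8 in sh*Pax6* PBS to 282 in WT NMDA and rod markers, which mark the labelled tissue, from 20620 in sh*Pax6* NMDA to 35620 in sh*Pax6* PBS. In WT NMDA, the Müller glia sum reached 1812 to 1821 while 1 of the 8 markers was called higher and 3 lower (*Slc1a3*, *Aqp4* and *Kcnj10*), and the RPE sum was the highest of the 6 groups while *Rpe65* was called lower. The part of any of these in the members' values was not tested.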

How the data were processed

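RNA from adult mouse retinas was extracted with TRIzol, and poly(A) libraries were sequenced in paired reads of 101 bases. Per the submitters' processing notes, the authors used STAR 2.7.1a, RSEM 1.3.3 and edgeR 3.36.0 in R 4.1.0 with GRCm38.p6, and deposited gene and transcript FPKM, which RSEM estimates with shared reads divided between similar genes. Differences were computed with limma 3.58.1 in R 4.3.3 on log2(FPKM + 0.1), over 16471 genes whose mean exceeded 1 FPKM in at least 1 of 6 groups and all 12 libraries in 1 fit of 6 group means. limma was used in place of the authors' edgeR because FPKM are not counts. Calls took a Benjamini-Hochberg adjusted p under 0.05 over all genes tested and an absolute log2 difference over 1. Library values were to be given for at most 5 called members in each direction of a comparison, and further members were given after their values were seen. The members and lists were chosen with earlier results of these data known.

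TPM were FPKM rescaled to equal library totals. The length correction removed from each library a lowess trend (span 0.3) of log2 values on spliced length from GENCODE M21, which matched 55227 of the 55487 genes (99.53%) and 141469 of 142699 transcripts (99.14%). Promoters were RefSeq sequences of GRCm38.p6, matched by symbol. The scripts were tested on simulated data with planted changes. Of 100 genes changed by 2 on the log2 scale, 79% were called for NMDA in sh*Pax6* and 67% for WT minus sh*Pax6*. For changes of 3 the shares were 87% and 75%, so that a gene not called may still have changed. The study's methods give a subretinal route for the vector, and its results text an intravitreal one. The values of 1 pathway gene are not reported here.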

Additional observations from a re-analysis of the deposited data

Results flagged for a closer look

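The response to NMDA differed between WT and sh*Pax6* retinas, by limma's test of the difference itself, for 17 members. All 17 were lower in WT, where 21.7% of all genes were called lower and 10.3% higher. Given as log2 differences of WT minus sh*Pax6*, the members were *Ifit1* at -1.85, *Ifit2* at -2.55, *Ifit3* at -1.27 and *Ifit3b* at -1.64 in the IFIT family. In the OAS and PKR group they were *Oas1a* at -1.01, *Oas2* at -2.04, *Oasl2* at -1.45 and *Eif2ak2* at -1.13. The guanylate-binding proteins gave -2.67 for *Gbp2*, -1.77 for *Gbp3* and -2.82 for *Gbp7*. The remaining values were -4.24 for *Rsad2*, -3.17 for *Ifi44*, -2.14 for *Trim30a*, -1.79 for *Ifih1*, -1.32 for *Parp14* and -1.23 for *Xaf1*.

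Between WT and JNK3 KO retinas the same test gave 14 members. Of all genes, 15.5% were called higher and 20.1% lower, so that members were called about as often as all genes. The WT response was higher for *Irf7* at 2.01, *Bst2* at 1.69, *Mx2* at 1.48, *Zbp1* at 1.47, *Ifi27* at 1.27, *Usp18* at 1.16 and *Igtp* at 1.14. It was lower for *Gbp7* at -2.33, *Rsad2* at -1.996, *Ifi44* at -1.85, *Ifit2* at -1.81, *Ifih1* at -1.55, *Ifit1* at -1.53 and *Eif2ak2* at -1.09. With 2 libraries a group, no group was large enough to look for a library far from the others.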

How the results depend on the processing

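The counts of called members were recomputed with a pseudocount of 1, no filter on low values, TPM, quantile normalization, a length correction, the spread taken from the groups compared alone, the study's own thresholds on unadjusted p, no fold limit, a replicate block and each library left out. No named value changed sign while called. Without a fold limit the counts rose to 9 (sh*Pax6* PBS against WT PBS), 27 (NMDA in WT), 28 (NMDA in sh*Pax6*), 5 (NMDA in JNK3 KO), 13 (JNK3 KO PBS against WT PBS) and 23 (response, WT minus JNK3 KO). Of all 16471 genes, 4286 were higher and 5569 lower at that threshold for NMDA in WT. For WT minus JNK3 KO they were 3875 and 4597, and shares of all genes for the other comparisons are given above. sh*Pax6* PBS against WT PBS moved from 2 to 1 with a pseudocount of 1 and to 0 with the length correction. With that correction 3.2% of all genes were called lower and 0.711% higher. JNK3 KO PBS against WT PBS moved from 3 to 5 on TPM and 6 with the length correction. Of all genes, 0.1% were called lower and 0.0946% higher on TPM, and 0.122% and 0.0973% with the length correction. The count was 6 with the study's thresholds and 0 with the spread from its own groups. The WT minus sh*Pax6* response moved from 17 to 27 on TPM, where 34% of all genes were called lower. NMDA in sh*Pax6* moved from 15 to 8 with the spread from its own groups. *Irf7*, *Ifitm3*, *Oas1a*, *Oas2*, *Mx2*, *Ifi27* and *Zbp1* lost their call there. NMDA in JNK3 KO moved from 1 to 3 with the study's thresholds. Shares of all genes were not counted for the study's thresholds, the pseudocount of 1 or the spread from the groups compared alone. They were also not counted for the replicate block or with 1 library left out, so these counts are not results about the members. The causes were not tested.

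With 1 library left out, the counts lay between 1 and 2 for sh*Pax6* PBS against WT PBS, 1 and 2 for JNK3 KO PBS against WT PBS, 12 and 16 for NMDA in WT, 14 and 16 for NMDA in sh*Pax6*, 1 and 1 for NMDA in JNK3 KO, 16 and 21 for WT minus sh*Pax6* and 12 and 16 for WT minus JNK3 KO. A lone library left in a group was assumed to vary like the other groups. Libraries with the same replicate number showed little shared deviation (15 pairs of groups, correlations of -0.097 to 0.086), and the labels do not say what the number stands for. With the replicate block, the count was 2 for NMDA in JNK3 KO, 18 for WT minus sh*Pax6* and 15 for WT minus JNK3 KO, and the other comparisons had their unblocked counts. FPKM give no counts, so counting error was not available, and members at a few FPKM such as *Mx1* and *Oas2* are the least certain.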
